A study of Mus musculus with 6 samples.

Results

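DNA methylation in mammals is written, read and erased by a small set of proteins, and 9 of their genes are described here. These are the maintenance genes Dnmt1 and Uhrf1, the Uhrf1 paralog Uhrf2 and the de novo methyltransferase genes Dnmt3a and Dnmt3b. The others are the dioxygenase genes Tet1, Tet2 and Tet3 and the methyl-CpG reader gene Mbd2. All 9 genes were chosen by name, and for each symbol the array row with the highest mean over all arrays was taken. In this way 9 of 19938 gene symbols with a row of their own were followed. N2A mouse neuroblastoma cells, an established line grown in serum, were transiently transfected with 1.5 ug of a shRNA vector directed against the transcription factor gene Pou3f3 (3 arrays) or with a non-targeting vector (3 arrays). Total RNA was taken 2.5 days later, and 200 ng were labelled for Affymetrix Mouse Gene ST arrays. All samples are of this line, with 1 knockdown construct, from which a U6 promoter drives the hairpin. The methods call the samples of a group biological replicates without further detail, so each p-value measures the spread between samples of 1 line. Whether these were separate transfections is not stated. No sorting of transfected cells is described, and each sample may hold untransfected cells too. In such bulk RNA, fewer cells in a given state and less RNA per cell cannot be told apart.

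After each round of DNA replication the new strand lacks methyl groups. UHRF1 recognises such hemimethylated CpG sites and brings in DNMT1, which copies the mark, whereas DNMT3A and DNMT3B methylate sites that carried none. The TET enzymes oxidise methylcytosine and so begin its removal, and MBD2 binds methylated CpG sites and recruits the NuRD repressor complex. UHRF2 has the same domain order as UHRF1 and also binds hydroxymethylcytosine, but does not replace UHRF1 in maintenance. DNMT1 and CpG methylation were among the subjects of the study, which set the Pou3f3 knockdown beside that of a neighbouring non-coding RNA.

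Promoter sequences were taken from RefSeq (GRCm38.p6), which listed 13 transcription starts for 8 of the 9 genes. Mbd2 had no entry. They are shown for Uhrf2, the only gene called below, and for the maintenance genes Dnmt1 and Uhrf1. In the 250 bases before the Uhrf2 start (chr19:30030263-30030512, plus strand), 23 CpG sites, in capitals, are the positions at which the enzymes described here could act.
Uhrf2: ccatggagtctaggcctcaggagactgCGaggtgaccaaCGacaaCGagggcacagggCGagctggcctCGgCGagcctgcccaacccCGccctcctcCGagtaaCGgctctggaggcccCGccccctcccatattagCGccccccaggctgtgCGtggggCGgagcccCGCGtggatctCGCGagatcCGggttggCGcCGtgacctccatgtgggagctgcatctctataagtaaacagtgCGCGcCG

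A median promoter of this length had 6 CpG sites, and 86.7% of the 32851 listed promoters had fewer than Uhrf2. Taking the most CpG-rich start of each gene, the count ran from 15 for Tet1 to 51 for Tet2. The 250-base windows were searched on both strands for the POU octamer ATGCAAAT and for 4 forms of the site of E2F, the factor family that drives S phase genes (TTTGGCGC, TTTCCCGC, TTTGGCGG and TTTCGCGC). The octamer was in none of the 13 windows and in 1.60% of all promoters. An E2F form was in 2 of the 13, against 1.96% of all promoters, and these were windows of Dnmt1 (chr9:20952824-20952853, minus strand) and Uhrf1 (chr17:56304117-56304146, plus strand). The matched letters, in capitals, are TTTCGCGC in Uhrf1 and its reverse complement in Dnmt1, shown with 11 bases on each side.
Dnmt1: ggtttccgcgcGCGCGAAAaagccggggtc
Uhrf1: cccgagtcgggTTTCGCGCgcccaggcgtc

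Both matches lie at the most CpG-rich of the starts listed for their gene, 211 and 177 bases before it. A match of letters is not evidence of binding, and its absence from a window says nothing about the factor.

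All values below are log2 array values, and differences are knockdown minus control. A gene was called at an adjusted p under 0.1 (limma, adjusted over all 21789 rows with 1 gene symbol) together with a change of at least 1.3-fold, the cut-offs of the study. Of all rows, 1.99% were called, 1.3% as higher and 0.684% as lower in knockdown cells, and the median difference was -0.03. Pou3f3 itself had values of 8.20, 8.09 and 8.35 in knockdown cells, against 8.37, 8.30 and 8.47 in control cells. The groups overlapped, and the difference of -0.16 was not called (limma adjusted p = 0.303). By replicate number, knockdown minus control was -0.17, -0.21 and -0.12 (limma adjusted p = 0.0880 with the replicate block, below the fold cut-off). The study itself measured Pou3f3 by quantitative RT-PCR after its shRNA knockdown and reported a lower level, which is another measure than this array row. Of the sympathoadrenal markers that define this kind of tumour, 11 were measured, at levels from 8.14 (Ddc) to 13.8 (Stmn2). Of these 8 lay below 0, 5 with the groups apart, and their median difference was -0.18. Of all rows 42.5% lay above 0, and the groups were apart for 26.0%, with knockdown higher for 10.9%. The noradrenaline synthesis gene Dbh was called (-1.17), and with the replicate block Th, which encodes the first enzyme of that synthesis, was called too (-0.38, limma adjusted p = 0.133 without and 0.0420 with the block). Their part in the results below was not tested. The 16 markers of astrocytes, immune cells, fibroblasts and endothelium lay at 6.21 (Ptprc) to 9.27 (Pdgfrb), and none of them was called.

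Uhrf2 rose in knockdown cells, and it was the only one of the 9 genes to be called. Its values were 11.76, 11.39 and 11.47 in knockdown cells, against 11.13, 10.92 and 11.04 in control cells. Every knockdown array lay above every control array, with knockdown replicate 1 the highest. The mean was 11.54 ± 0.20 in knockdown and 11.03 ± 0.11 in control cells (SD, n = 3 each), a difference of 0.51 ± 0.10 (SE) or 1.42-fold, with a 95% confidence interval of 0.28 to 0.74 (limma adjusted p = 0.0485). Only 0.464% of all rows had a larger difference in this direction. Between arrays of the same replicate number Uhrf2 was higher by 0.63, 0.47 and 0.43. The call was lost without control replicate 2 (0.45, limma adjusted p = 0.188) and without control replicate 3 (0.51, limma adjusted p = 0.140). It was also lost after a variance filter over named and unnamed rows (limma adjusted p = 0.300). This filter takes the study's variance cut-off as a quantile, which its methods do not state. Over named rows alone the same cut-off kept the call (limma adjusted p = 0.00645).

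**Figure D1:**
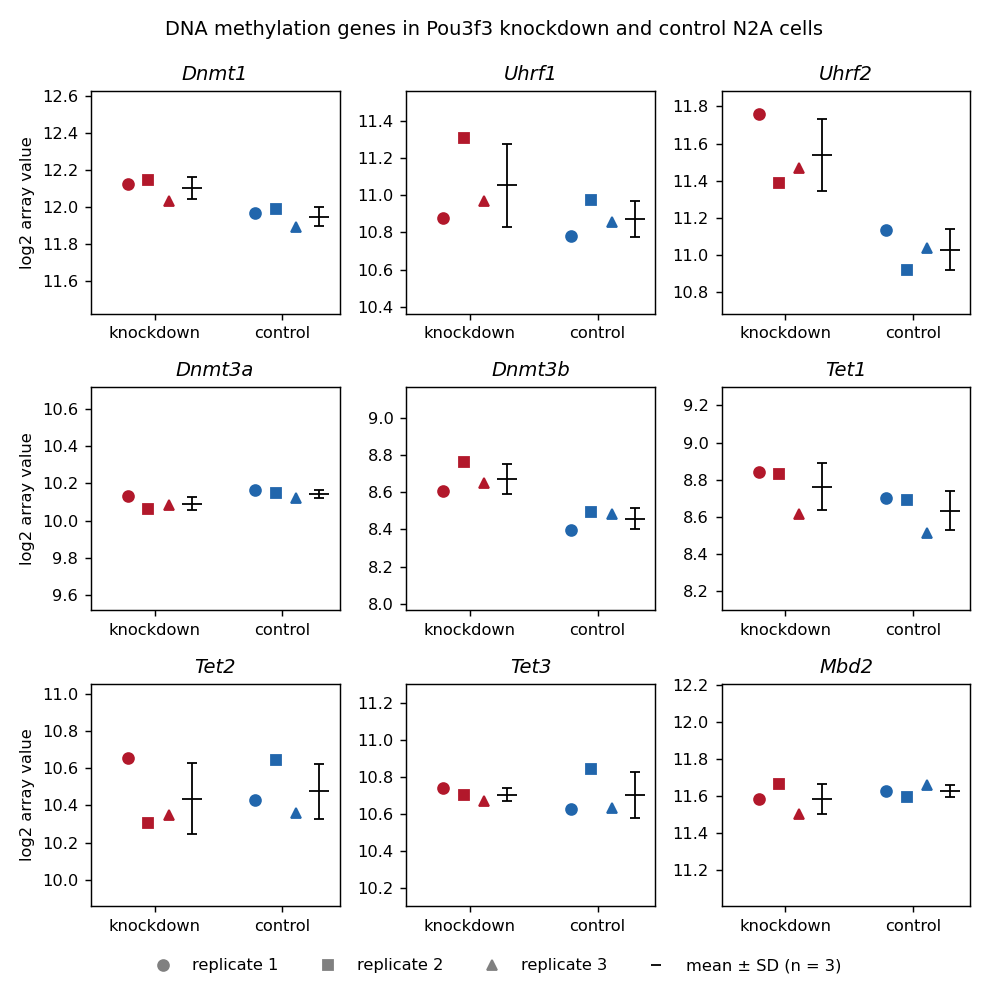
Array values of the 9 genes on the log2 scale (vertical axes, all of the same span) in Pou3f3 knockdown and control N2A cells; symbols are arrays by replicate number and bars are means ± SD (n = 3). The groups are apart for Uhrf2, Dnmt3b and Dnmt1 and overlap for the other 6 genes.

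The maintenance methyltransferase gene Dnmt1 lay slightly higher in knockdown cells, without reaching the call. Its values were 12.13, 12.15 and 12.03 in knockdown cells, against 11.97, 11.99 and 11.89 in control cells. The groups did not overlap, but the lowest knockdown array (12.03) stood close to the highest control array (11.99). The difference was 0.15 ± 0.07 (SE), with a 95% confidence interval of 0.00 to 0.30 that stays below the 1.3-fold cut-off of 0.38 (limma adjusted p = 0.243). The arrays of the same number differed by 0.16, 0.16 and 0.14, a narrower spread than that between the arrays of either group.

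Uhrf1, the partner that guides DNMT1 to replicated DNA, had values of 10.88, 11.31 and 10.97 in knockdown cells, against 10.78, 10.97 and 10.86 in control cells. Knockdown replicate 2 stood above the other 5 arrays, and the groups overlapped. The difference was 0.18 ± 0.11 (SE; 95% confidence interval -0.07 to 0.43, limma adjusted p = 0.378), and leaving out knockdown replicate 2 brought it to 0.05. That array also had the highest mean of 23 S phase genes listed for comparison. This mean was 10.87, 11.20 and 10.91 in knockdown replicates 1 to 3, against 10.82, 10.93 and 10.78 in the control replicates. The part of S phase in the Uhrf1 and Dnmt1 values was not tested.

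Whether the maintenance genes and Uhrf2 moved unequally was asked from the difference between 2 genes on the same array. Uhrf2 minus Uhrf1 was 0.88, 0.08 and 0.50 in knockdown cells, against 0.35, -0.06 and 0.18 in control cells. The knockdown values were higher on average by 0.33 and by 0.53, 0.14 and 0.32 between arrays of the same number, but the groups overlapped (exact permutation test, two-sided, p = 0.3, or 0.45 after Benjamini-Hochberg adjustment over 3 pairs of genes). This test does not use the replicate numbers. It did not show a larger change of Uhrf2 than of Uhrf1, although Uhrf2 was called and Uhrf1 was not. Dnmt1 minus Uhrf1 changed by -0.03 (exact permutation p = 1). With 3 arrays against 3 this test cannot go below 0.1.

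The de novo enzymes stood on either side of 0. Dnmt3b had values of 8.61, 8.76 and 8.65 in knockdown cells, against 8.40, 8.50 and 8.48 in control cells. All knockdown arrays lay above all control arrays. The difference was 0.21 ± 0.07 (SE), with a 95% confidence interval of 0.06 to 0.37, and was not called (limma adjusted p = 0.150).

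Dnmt3a, which encodes the other de novo enzyme, had values of 10.13, 10.06 and 10.08 in knockdown cells, against 10.16, 10.15 and 10.12 in control cells. The groups overlapped only between knockdown replicate 1 and control replicate 3. The difference was -0.05 ± 0.06 (SE; 95% confidence interval -0.19 to 0.08, limma adjusted p = 0.639). Dnmt3a minus Dnmt3b was 1.522, 1.296 and 1.435 in knockdown cells, against 1.768, 1.652 and 1.637 in control cells. These groups were apart, and the ratio differed by -0.27 (exact permutation p = 0.1, the smallest that 3 against 3 allows, or 0.3 after adjustment over the 3 pairs).

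Of the TET genes, Tet1 lay higher and Tet2 and Tet3 near 0, and none was called. Tet1 had values of 8.84, 8.83 and 8.62 in knockdown cells, against 8.70, 8.69 and 8.51 in control cells. Replicate 3 was the lowest in each group. The groups overlapped, and every knockdown array exceeded the control array of its number, by 0.14, 0.14 and 0.10. The difference was 0.13 ± 0.09 (SE; 95% confidence interval -0.06 to 0.32, limma adjusted p = 0.420). Tet1 has 2 further rows on the array, at lower values, and these differed by 0.13 and 0.22 (limma adjusted p = 0.427 and 0.161).

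Tet2 had values of 10.66, 10.31 and 10.35 in knockdown cells, against 10.43, 10.64 and 10.36 in control cells. A high array stood in each group, but with different numbers, so that the differences by number were 0.23, -0.34 and -0.01. The mean difference of -0.04 ± 0.11 (SE; 95% confidence interval -0.29 to 0.21) turned to 0.04 without control replicate 2, to 0.02 without knockdown replicate 2 and to 0.00 without knockdown replicate 3. Tet3 had values of 10.74, 10.70 and 10.67 in knockdown cells, against 10.63, 10.84 and 10.64 in control cells. Its difference was 0.00 ± 0.08 (SE; 95% confidence interval -0.17 to 0.18), and the remaining row of Tet3 differed by -0.06. The sign for Tet3 turned after cyclic loess (-0.04) and without control replicate 1 (-0.03), control replicate 3 (-0.03) or knockdown replicate 1 (-0.01).

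Mbd2 had values of 11.59, 11.66 and 11.50 in knockdown cells, against 11.63, 11.60 and 11.66 in control cells. The groups overlapped, and the difference was -0.04 ± 0.07 (SE; 95% confidence interval -0.20 to 0.11, limma adjusted p = 0.737).

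**Figure D2:**
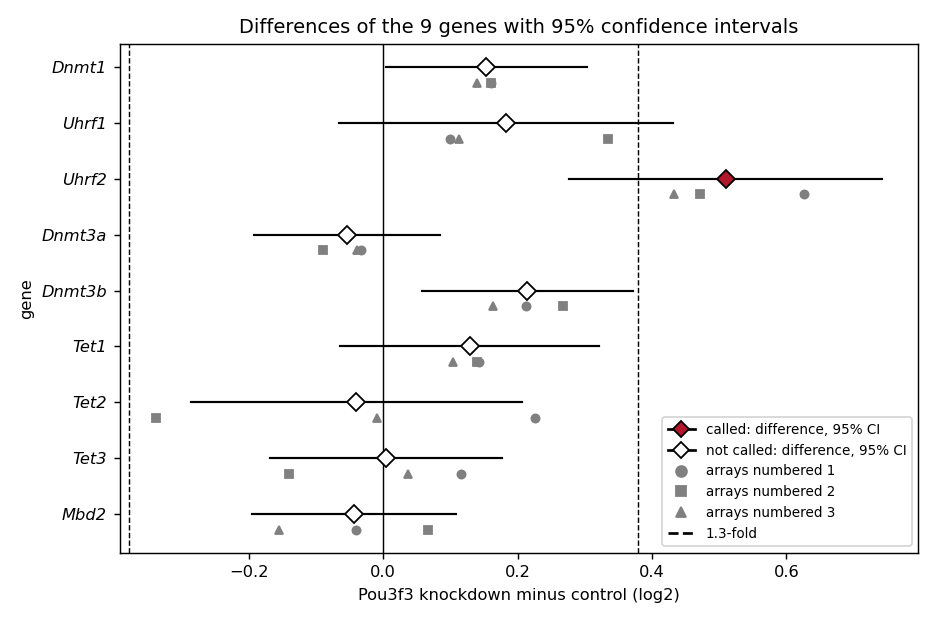
Differences between Pou3f3 knockdown and control (horizontal axis, log2) for the 9 genes (vertical axis); diamonds and lines are limma estimates with 95% confidence intervals (n = 3 arrays in each group), and grey symbols are differences between arrays of the same replicate number. Uhrf2, at 0.51, is the only called gene, and the intervals of Uhrf2 and Uhrf1 alone reach past the 1.3-fold lines.

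Across the 9 genes, 1 was called higher and none lower. An unadjusted limma p under 0.05 was found for 3, namely Uhrf2, Dnmt3b and Dnmt1, and for 4327 of all 21789 rows. The groups were apart for these 3 genes, all of them higher in knockdown cells, whereas the groups did not overlap for 26.0% of all rows and 10.9% were apart with knockdown higher. By replicate number 5 genes were higher in all 3 pairs, where 23.8% of all rows were, 1 was lower in all 3 (Dnmt3a) and 3 were mixed. The median difference of the 9 genes was 0.13. For 7 of them the 95% confidence interval lay wholly within the 1.3-fold cut-offs in both directions, the exceptions being Uhrf2 and Uhrf1. These intervals are not adjusted for the number of genes.

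The wider pathway was described by 6 lists with 85 genes, of which 77 had a row of a single symbol and 2 were called, both as higher, or 2.60% of the genes measured against 1.99% of all rows. The remaining genes were not analysed here.

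Among 12 partners of maintenance methylation, Cdca7 rose. It encodes the zinc finger protein that activates the remodeller HELLS, which opens nucleosomal DNA to methylation. Cdca7 had values of 10.63, 11.12 and 10.56 in knockdown cells, against 10.03, 10.31 and 10.13 in control cells. All knockdown arrays lay above the control arrays, with replicate 2 the highest in each group. The difference was 0.61 ± 0.14 (SE, limma adjusted p = 0.0704). The call was lost without control replicate 1 (limma adjusted p = 0.103), control replicate 2 (0.150), control replicate 3 (0.175) or knockdown replicate 2 (0.142), and after the variance filter over all rows (0.304). The list median was 0.10, or 0.04 without knockdown replicate 2. Of the 12 genes 9 lay above 0, against 42.5% of all rows.

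In humans, mutations of DNMT3B, ZBTB24, CDCA7 and HELLS cause the same syndrome of immunodeficiency and unstable centromeres, with loss of methylation at satellite repeats. Of the mouse genes, Hells differed by 0.29 (limma adjusted p = 0.293) and Zbtb24, a transcriptional activator of CDCA7, by 0.01 (limma adjusted p = 0.936). The replication clamp gene Pcna differed by -0.05 (limma adjusted p = 0.768), with overlapping groups.

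Among 17 genes of demethylation and base excision, 1 rose, namely Neil3, which encodes a DNA glycosylase for oxidised bases. Its values were 11.21, 11.07 and 11.01 in knockdown cells, against 10.59, 10.40 and 10.54 in control cells. The groups were clearly apart. The difference of 0.59 ± 0.08 (SE, limma adjusted p = 0.0160) was called on leaving out any of the 6 arrays, but not after the variance filter over all rows (limma adjusted p = 0.221). The list median was 0.09. It was 0.04 without control replicate 1, 0.06 without knockdown replicate 2, 0.15 without knockdown replicate 1 and 0.05 after cyclic loess.

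None of the 12 partners of de novo methylation, the 7 other methyl-CpG readers, the 13 genes of methyl donor supply or the 16 germline genes that promoter methylation silences in somatic cells was called. Their medians were 0.10, 0.02, 0.01 and -0.04, and those of the readers and of methyl donor supply turned negative after cyclic loess (-0.03 and -0.02). The germline median ran to -0.06 without control replicate 2, to -0.09 without control replicate 3 and to -0.02 after cyclic loess. In the first of these lists the largest difference was that of Dppa3, which protects the maternal genome of the zygote from demethylation (-0.23, limma adjusted p = 0.176). Mbd4, a reader with glycosylase activity, had the largest difference of the readers (0.22, limma adjusted p = 0.225). Ahcyl1, a relative of the enzyme that clears S-adenosylhomocysteine, differed by 0.29 (limma adjusted p = 0.0819, below the fold cut-off). The largest difference among the germline genes was that of the piRNA pathway gene Mov10l1 (-0.24, limma adjusted p = 0.126).

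The S phase genes had a median of 0.13, and 19 of 23 lay above 0, against 42.5% of all rows. The primase gene Prim1 had values of 11.44, 11.46 and 11.18 in knockdown cells, against 11.12, 10.84 and 10.83 in control cells. It rose by 0.43 ± 0.11 (SE, limma adjusted p = 0.0786) and was the 1 call in the list, lost after cyclic loess (limma adjusted p = 0.112), after the variance filter over all rows (0.329) and without control replicate 2 (0.260), control replicate 3 (0.214), knockdown replicate 1 (0.145) or knockdown replicate 2 (0.257). Gins1, a subunit gene of the replicative helicase, had the largest difference (0.53, limma adjusted p = 0.155). With the replicate block 2 of these genes were called, Prim1 and Gins1. The median of the list was 0.06 without knockdown replicate 2, 0.20 without control replicate 2 and 0.08 after cyclic loess.

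**Figure D3:**
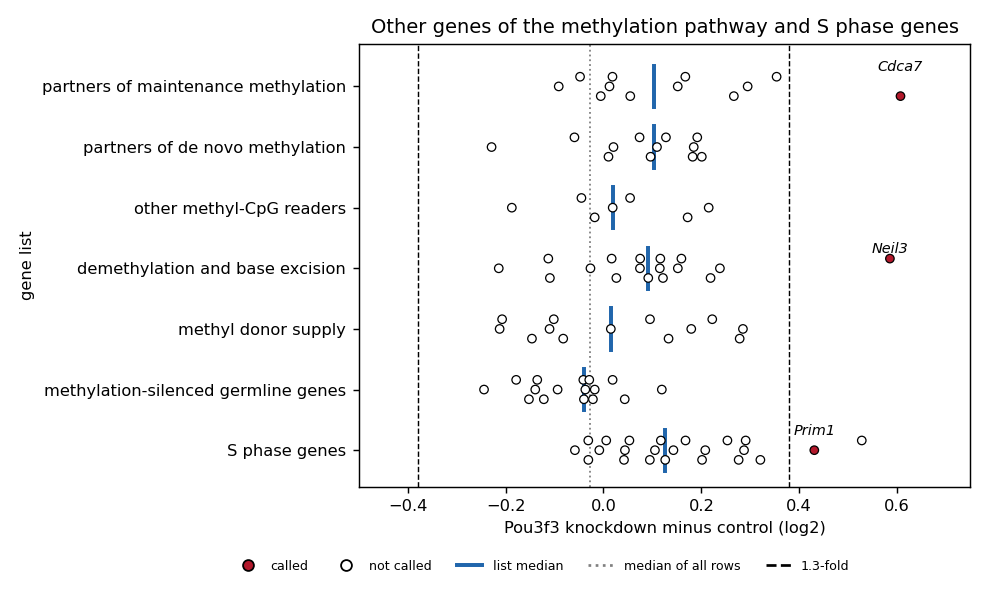
Differences between Pou3f3 knockdown and control (horizontal axis, log2) for genes of 6 methylation pathway lists and for S phase genes (vertical axis); points are genes, filled where called, and vertical bars are list medians. Cdca7, Neil3 and Prim1 are the called genes, and list medians run from -0.04 for the germline genes to 0.13 for the S phase genes.

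The genes whose values over the 6 arrays were most like those of Dnmt1 and Uhrf2 differed. For Dnmt1 they were Kif11, the kinesin motor that separates spindle poles (Pearson's r = 0.997 across 6 arrays, among 19938 symbols), Ezh2, the histone methyltransferase of Polycomb complex 2 (r = 0.993), and Sgo2a, a protector of centromeric cohesion (r = 0.992). For Uhrf2 they were Tbc1d31, a centrosome and cilium gene (r = 0.998), Uaca, a gene of apoptosome regulation (r = 0.996), and Txnrd1, the cytosolic thioredoxin reductase (r = 0.994). Kif11 had values of 12.27, 12.31 and 12.10 in knockdown cells, against 11.91, 11.99 and 11.77 in control cells, with replicate 3 the lowest of each group as for Dnmt1. Tbc1d31 had values of 12.79, 12.53 and 12.57 in knockdown cells, against 12.33, 12.17 and 12.22 in control cells, with replicate 1 the highest and replicate 2 the lowest of each group as for Uhrf2. These correlations rest on 6 arrays that share the group difference and their replicate numbers, and each is the highest of many.

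**Figure D4:**
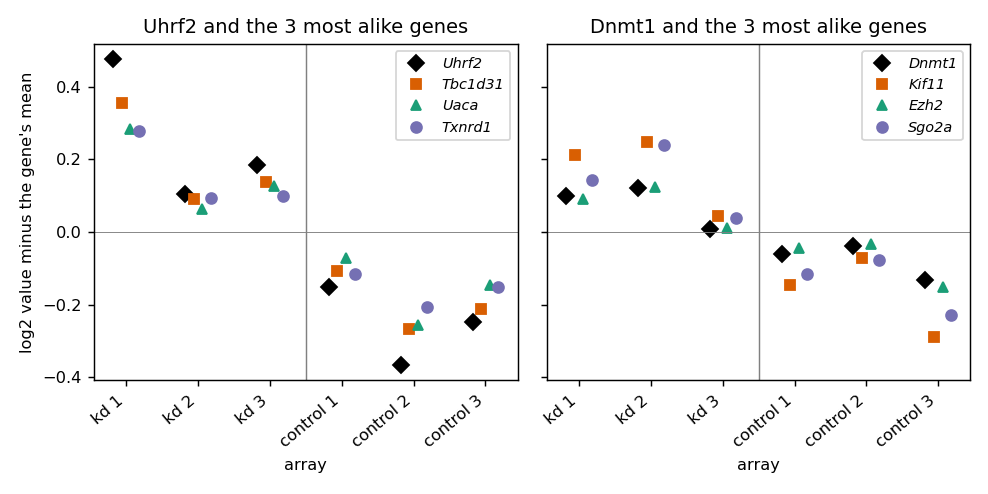
Log2 values minus each gene's own mean (vertical axis) on the 6 arrays (horizontal axis; kd, Pou3f3 knockdown) for Uhrf2, Dnmt1 and the 3 genes most like each. Knockdown arrays lie above control arrays for all 8 genes, with replicate 1 the highest for Uhrf2 and replicate 3 the lowest for Dnmt1 in each group.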

How the data were processed

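RNA of 3 Pou3f3 knockdown and 3 control samples was measured on Affymetrix arrays. The deposited values are log2 intensities, which the authors obtained by RMA background correction, quantile normalisation and summary at gene level. The submitters' processing notes name RMA and limma, with no version. Quantile normalisation hides a change shared by most transcripts, detection above background was not analysed, and precision is limited by how few arrays there are. Array levels of different rows are not comparable, since probes differ in affinity.

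The platform annotation gave the gene symbols. Of 35556 rows, 21789 had 1 symbol, 1621 several and 12146 were not listed. The platform symbols were kept. Only where a gene name matched none of them was it sought among current symbols, found through Entrez identifiers in RefSeq (GRCm38.p6), which matched 21698 rows. Rows with 1 symbol were fitted with limma 3.58.1 (lmFit, eBayes, no block, Benjamini-Hochberg) in R 4.3.3, without the variance filter of the study. Its cut-off of 0.5 was read as a quantile of the variance over all rows, which the methods do not state, and under that reading 4 of the 9 genes were not tested. The fit was tested on simulated data with independent values. These lack the correlation between arrays of the same number described below, so the fit was not tested under it. The genes, lists, motifs and the test were chosen with earlier results of these data known. Named genes are the 9 genes, Pou3f3, every called gene and the largest difference of each list, the 3 most alike genes of Dnmt1 and Uhrf2 and the marker genes of lowest and highest level. Hells, Zbtb24, Pcna, Asz1 and Zfp57 were chosen after their values were seen. Replicate numbers come from the sample titles. Deviations from the group means correlated between arrays of the same number (0.64, 0.31 and 0.29 over rows; -0.48 to 0.25 between different numbers, with 0.25 and 0.22 among replicates 2 and 3), so arrays were taken as paired. The fit with the number as a block was an alternative, and the main fit and the permutation tests do not use the pairing. The other alternatives were that variance filter, a variance and a level filter on named rows, median centring, cyclic loess, trended robust eBayes, leaving out each array, and averaging the rows of a symbol.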

Additional observations from a re-analysis of the deposited data

How the results depend on the processing

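Of 111 recomputed differences of the 9 genes, 100 kept their direction and their call or lack of one, 3 lost the call and 8 turned sign. Those that lost the call were all of Uhrf2, which ranged from 0.40 to 0.58 on leaving out 1 array and was 0.51 after the variance filter over all rows, with limma adjusted p from 0.00228 to 0.300 over all alternatives. Those that turned sign were of Tet2 (-0.150 to 0.043 on leaving out 1 array) and Tet3 (-0.034 to 0.075 on leaving out 1 array, -0.045 after cyclic loess and -0.030 as the mean of its rows). The filters, trended robust eBayes and the replicate block leave each difference as it was. Under these no sign could turn, and genes below the fold cut-off could not become called. The variance filter over all rows, 1 reading of the study's methods, left 12 calls among 17778 rows and 0 among the 9 genes (2228 rows had an unadjusted limma p under 0.05), and did not keep Dnmt1, Dnmt3a, Tet3 and Mbd2. The study reports many more changed genes, so this reading does not reproduce its test. The same filter over named rows left 542 calls, Uhrf2 among them (limma adjusted p = 0.00645). On leaving out 1 array, 0 to 1 of the 9 genes and 147 to 611 rows were called, against 433. Cyclic loess called 232 rows higher and 193 lower (54.6% higher), against 284 and 149 (65.6%), turned the medians of the other readers to -0.029 and of methyl donor supply to -0.022, and left 0 S phase calls. On leaving out 1 array these medians ran from -0.042 to 0.061 and from -0.073 to 0.056, 0 to 2 partners of maintenance methylation were called, and 0 to 1 S phase genes. With the replicate block Uhrf2 had a limma adjusted p of 0.00228, 544 rows were called and 2 S phase genes. It changed no call among the 9 genes, although Dnmt3b (0.0418) and Uhrf1 (0.0963) passed the adjusted p while staying below the fold cut-off. On leaving out 1 array, Uhrf2 minus Uhrf1 ran from 0.13 to 0.53, Dnmt1 minus Uhrf1 from -0.13 to 0.08, turning sign, and Dnmt3a minus Dnmt3b from -0.32 to -0.21. The cause of these shifts was not tested.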

Other observations

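The germline gene Asz1, whose promoter is methylated in most somatic tissues, had values of 12.69, 12.68 and 12.64 in knockdown cells, against 12.83, 12.61 and 12.70 in control cells. The groups overlapped, and the methylation of its promoter was not measured. Zfp57, which guards methylation at imprinted loci in the early embryo, had values of 12.07, 11.97 and 12.04 in knockdown cells, against 11.90, 11.72 and 11.89 in control cells. The Zfp57 groups were apart, and the difference of 0.18 was not called (limma adjusted p = 0.208).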
